A study of Homo sapiens with 36 samples.

Results

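Of the 60591 genes in the mRNA count table, 9 genes of heme oxygenase and heme metabolism are described here: HMOX1, HMOX2, BLVRA, BLVRB, BACH1, ALAS1, FECH, FLVCR1 and SLC48A1. Their rows were taken by symbol, the 9 having been picked with earlier results of these data known, and all 9 were found in the table and passed the filter on low counts in both cell lines. The mRNA had been sequenced from Caco-2 and HT-29, both established lines of human colon adenocarcinoma, in 6 groups of 3 libraries. Caco-2 cells had been kept under differentiation conditions for 21 days, whereas the labels give no such step for HT-29, so that line and culture state cannot be told apart. In each line, cells were incubated for 24 h with cobalt (II) chloride (CoCl2) at 300 µM, with a derivative of oxyquinoline (OD) at 5 µM delivered in dimethyl sulfoxide (DMSO), or with DMSO alone at 0.5 µl per ml of medium as the control. The CoCl2 stock was aqueous per the labels, while the study's methods, which describe Caco-2 and not HT-29, put DMSO in the CoCl2 and control medium at a higher concentration than the labels give, and the part of the solvent in the CoCl2 values was not tested. The supplier's catalogue number is all that the labels give of the structure of OD. Each agent serves as a chemical model of hypoxia, by inhibition of the hydroxylases through which oxygen keeps hypoxia-inducible factor (HIF) low.

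Heme is made in a pathway that starts with aminolevulinate synthase (ALAS1 outside red cells) and ends with ferrochelatase (FECH), which inserts iron into protoporphyrin. Heme oxygenases open the heme ring and release iron, carbon monoxide and biliverdin. Of the biliverdin reductases, BLVRA reduces the main biliverdin isomer to bilirubin, and BLVRB reduces other isomers and flavins. HMOX1 is the inducible enzyme and HMOX2 the constitutive one, and BACH1 is a heme-sensing repressor that occupies enhancers of HMOX1 together with small MAF proteins until it is displaced, often by the activator NRF2. In the gut, the absorptive cells take up heme from food and recover its iron through heme oxygenase, and cobalt salts are a classical inducer of HMOX1 in many tissues.

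The libraries held from 12925719 to 22332639 counts, and no pair of replicates agreed within counting error. All 9 epithelial markers examined (among them EPCAM, VIL1 and CDX2) stood at 1 or more CPM (counts scaled to a fixed library total) in every group. Of 8 markers of differentiated enterocytes, 7 or 8 reached that level in the Caco-2 groups and 4 in the HT-29 groups. None of 8 erythroid markers reached it, and their summed level was at most 0.811 CPM. Of 5 fibroblast, 5 leukocyte and 3 endothelial markers, at most 2, 1 and 1 reached 1 CPM in any group. The highest of each list were COL1A1 (25.1 CPM) and PECAM1 (8.84 CPM) in the Caco-2 controls and ITGAM (19.7 CPM) with OD in HT-29. TMM factors, which scale the library sizes, ran from 0.765 to 0.774 in HT-29 with CoCl2 and from 1.188 to 1.201 in its controls, against 0.883 to 0.906 and 1.105 to 1.126 in Caco-2. Under CoCl2, the all-gene median of the log2 fold change was -0.35 in Caco-2 and -0.66 in HT-29 with library size alone as the scale, against -0.03 in either line with TMM. Many of the values that this choice moved, though not all, are given beside the results. A value with no such mark can still depend on the scale. Values in CPM were scaled within each line.

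**Figure D1:**
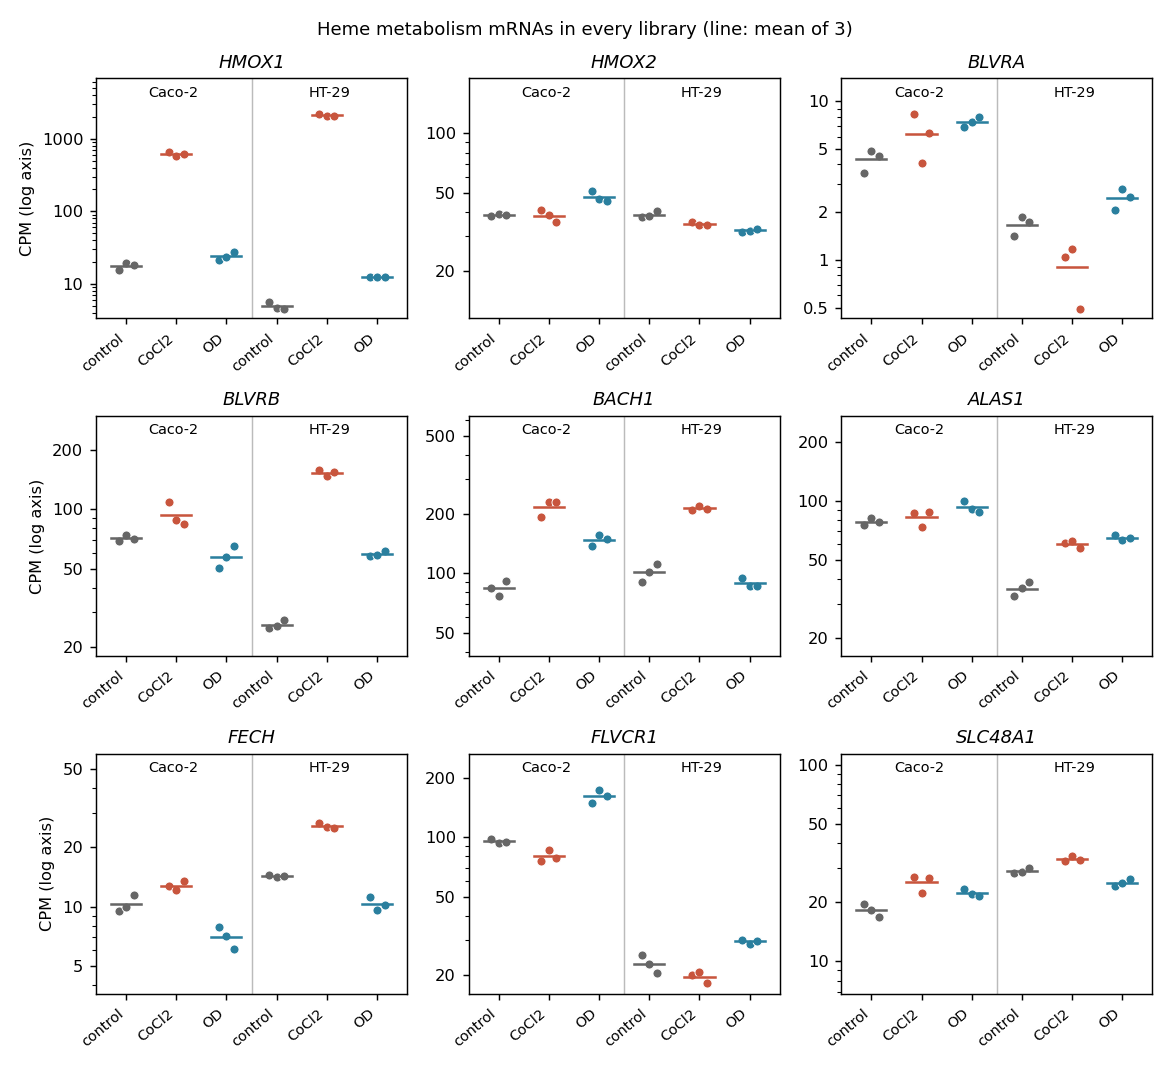
CPM (log axis) of each of the 9 genes in all 18 mRNA libraries, with 3 points per group and a line at the group mean; grey is control, red CoCl2 and blue OD, and the scale of CPM was set within each line. HMOX1 with CoCl2 stood at 574 CPM or more in Caco-2 and at 2065 CPM or more in HT-29, above all libraries of the other groups of the same line.

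HMOX1 rose with both agents in both lines, and by far more with CoCl2 than with OD. HMOX1 lies on chromosome 22 (GRCh38, 35380361 to 35394214, plus strand) and overlaps no other annotated gene. In Caco-2, the control libraries held 15.6, 19.3 and 18.4 CPM, the OD libraries 21.6, 23.6 and 27.6 CPM, and the CoCl2 libraries 651, 574 and 615 CPM. In HT-29, the control libraries held 5.62, 4.59 and 4.54 CPM, the OD libraries 12.6, 12.3 and 12.5 CPM, and the CoCl2 libraries 2199, 2076 and 2065 CPM. In both lines the ranges of the 3 groups lay apart, in the order control, OD, CoCl2. The CoCl2 change was 34.6-fold in Caco-2, with a 95% interval from 4.90 to 5.33 on the log2 scale (FDR 1.33e-21 by edgeR's quasi-likelihood test), and 435-fold in HT-29, with an interval from 8.62 to 8.91 (FDR 4.01e-33). The OD change was 1.37-fold in Caco-2 (log2 fold change 0.45, standard error (SE) 0.10, FDR 0.000853) and 2.56-fold in HT-29 (1.36, SE 0.09, FDR 3.85e-13). Ranked by fold change from the top, HMOX1 was 14 of 16034 genes tested for CoCl2 in Caco-2 and 2 of 15812 in HT-29, and 2899 and 899 for OD. As these are bulk libraries, more RNA per cell and a larger share of cells with the RNA cannot be told apart.

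With TMM as the scale, the other isoenzyme, HMOX2, stayed within a narrow span. Its group means ran from 32.2 CPM (SD 0.640, n = 3) with OD in HT-29 to 47.8 CPM (SD 3.02, n = 3) with OD in Caco-2. In Caco-2 it did not pass the test with CoCl2, where the 95% interval of the log2 difference ran from -0.19 to 0.17 (FDR 0.934; with library size alone the value was -0.33, FDR 0.0019), and it rose 1.24-fold with OD (FDR 0.00394; 0.16 on the log2 scale and FDR 0.114 with library size alone). In HT-29 it fell by 0.16 on the log2 scale with CoCl2 (FDR 0.0141; 0.0706 without control replicate 3 and 0.0507 without CoCl2 replicate 3) and by 0.27 with OD (FDR 2e-04). Among the alternative ways of processing, the log2 value for CoCl2 in HT-29 reached -0.8. HMOX2 lies on chromosome 16 (4474690 to 4510347, plus strand) and overlaps NMRAL1 on the opposite strand, and whether the counting used strand was not given in the sources used here.

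Per length, in RPKM (read counts scaled by library size and gene length) taken from the deposited log2 table, HMOX2 was the higher of the heme oxygenase mRNAs in both controls and under OD, and HMOX1 under CoCl2. The HMOX1 share of the summed RPKM of both genes was 37.7, 42.0 and 41.4% in the Caco-2 controls, 38.2, 42.7 and 47.0% with OD, and 95.9, 95.6 and 96.2% with CoCl2. In HT-29 it was 18.03, 15.1 and 14.1% in the controls, 36.9, 36.0 and 35.7% with OD, and 98.9% in each CoCl2 library. The control and OD ranges overlapped in Caco-2 and lay apart in HT-29. The mean share was 55.6 percentage points above control with CoCl2 and 2.29 points with OD in Caco-2, and 83.1 and 20.4 points in HT-29. The two-sided exact permutation test gave p = 0.1 for 3 of these 4 comparisons, which is the smallest p that 3 against 3 libraries allow, and p = 0.4 for OD in Caco-2 (adjusted over the 4, 0.133 and 0.4). The summed RPKM of both genes went from 19.5 (SD 0.997, n = 3) in the Caco-2 controls to 276 (SD 17.8) with CoCl2 and 24.6 (SD 0.785) with OD, and in HT-29 from 14.005 (SD 0.362) to 899 (SD 32.0) and 15.2 (SD 0.173).

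**Figure D2:**
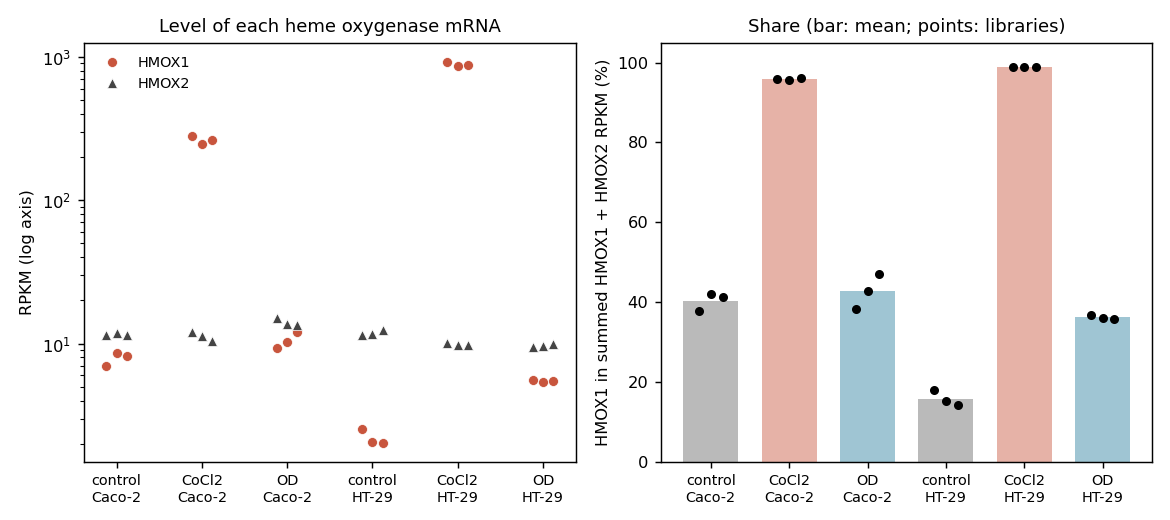
Left, RPKM (log axis) of HMOX1 and HMOX2 in each library; right, the HMOX1 share (%) of their summed RPKM, with a bar at the mean of 3 libraries and a point per library. HMOX1 made up 95.6% or more of the sum in every CoCl2 library and 47.0% or less in every other library.

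The biliverdin reductases did not move alike. BLVRB, which reduces other biliverdin isomers than the main one, and flavins, rose in HT-29 with both agents. Its HT-29 libraries held 25.1, 25.4 and 27.3 CPM in the controls, 57.7, 58.7 and 61.1 CPM with OD, and 158, 147 and 154 CPM with CoCl2. These 3 ranges lay apart, with a 5.88-fold rise for CoCl2 (log2 2.56, SE 0.05, FDR 2.36e-24) and a 2.27-fold rise for OD (1.18, SE 0.06, FDR 4.19e-16). In Caco-2, the libraries held 69.0, 74.4 and 70.6 CPM in the controls, 50.4, 57.5 and 64.9 CPM with OD, and 109, 88.4 and 84.1 CPM with CoCl2. There BLVRB rose 1.31-fold with CoCl2 (FDR 0.00108, but 0.556 and a log2 value of 0.07 with library size alone) and fell by 0.31 on the log2 scale with OD (FDR 0.0114; 0.0519 without replicate 2 of the control and 0.0682 without replicate 1 of OD).

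BLVRA, which reduces the main biliverdin isomer, was scarce. Its libraries held from 56 to 124 counts in Caco-2 and from 6 to 48 in HT-29, where it had not passed the authors' filter and was listed at 0 in the deposited log2 table. In Caco-2, the controls held 3.55, 4.90 and 4.50 CPM, the OD libraries 6.93, 7.45 and 7.97 CPM, and the CoCl2 libraries 8.33, 4.07 and 6.33 CPM. BLVRA rose 1.73-fold with OD (FDR 0.00244) and 1.44-fold with CoCl2 (FDR 0.0309, but 0.403 with library size alone). However, the CoCl2 and control ranges overlapped, and the FDR went to between 0.0501 and 0.212 when replicate 1 or 3 of either group was left out. In HT-29, the controls held 1.42, 1.86 and 1.73 CPM, the CoCl2 libraries 1.05, 1.18 and 0.494 CPM and the OD libraries 2.07, 2.79 and 2.50 CPM. All CoCl2 libraries were below and all OD libraries above the controls, with a fall by 0.86 on the log2 scale for CoCl2 (SE 0.28, FDR 0.00725; 0.0661 without replicate 3, the lowest, but -1.09 and called without replicate 2 and -1.49 and called with library size alone) and a 1.45-fold rise for OD (FDR 0.029; 0.0876, 0.055, 0.115 and 0.0686 when control replicate 1 or 3 or OD replicate 2 or 3 was left out, and 0.0998 with library size alone). BLVRA lies on chromosome 7 (43758680 to 43807342, plus strand) with a processed pseudogene inside it on the same strand.

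BACH1, the repressor of HMOX1, rose with CoCl2 in both lines and differed in its response to OD. In Caco-2, the controls held 84.7, 77.0 and 91.0 CPM, the OD libraries 138, 156 and 150 CPM, and the CoCl2 libraries 193, 230 and 230 CPM. The 3 ranges lay apart, with a 2.59-fold rise for CoCl2 (log2 1.37, SE 0.09, FDR 8.85e-13) and a 1.75-fold rise for OD (0.81, SE 0.08, FDR 2.7e-08). In HT-29, the controls held 90.5, 102 and 111 CPM, the CoCl2 libraries 211, 220 and 213 CPM, and the OD libraries 94.6, 86.1 and 86.0 CPM. The rise with CoCl2 was 2.11-fold (log2 1.08, SE 0.06, FDR 2.49e-15; 0.45 with library size alone), while with OD the level fell by 0.19 on the log2 scale (FDR 0.00687; 0.0845 without replicate 3 of the control) and the ranges of OD and control overlapped. BACH1 lies on chromosome 21 (29194071 to 29630751, plus strand), where 8 other annotated genes overlap it, among them BACH1-IT1 to BACH1-IT3 on the same strand and GRIK1 on the opposite strand.

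Of the 3 members called for either agent (FDR under 0.05 and an absolute log2 fold change over 1: HMOX1, BLVRB and BACH1), RefSeq promoter windows (GRCh38.p14, 250 bases before to 50 after a start) were at hand for BLVRB and BACH1. They are printed to show the letters next to these transcripts, with motif matches in capitals. Motifs were searched on both strands: ACGTG and GCGTG, the core letters of hypoxia response elements, TGANNNNGC, the core of antioxidant response elements, and TGANTCA, the AP-1 site, which BACH1 sites contain in part. Among 35116 such windows of all genes, ACGTG or GCGTG occurred in 48.4%, TGANNNNGC in 41.8% and TGANTCA in 7.71%.
BLVRB, chr19:40465696-40465995, minus strand: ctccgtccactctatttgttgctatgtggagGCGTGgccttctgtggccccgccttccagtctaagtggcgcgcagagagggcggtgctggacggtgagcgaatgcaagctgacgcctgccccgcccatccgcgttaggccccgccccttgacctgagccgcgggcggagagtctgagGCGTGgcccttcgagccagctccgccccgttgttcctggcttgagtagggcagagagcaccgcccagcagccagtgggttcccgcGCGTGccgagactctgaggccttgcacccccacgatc
BACH1, first of 3 windows, chr21:29298672-29298971, plus strand: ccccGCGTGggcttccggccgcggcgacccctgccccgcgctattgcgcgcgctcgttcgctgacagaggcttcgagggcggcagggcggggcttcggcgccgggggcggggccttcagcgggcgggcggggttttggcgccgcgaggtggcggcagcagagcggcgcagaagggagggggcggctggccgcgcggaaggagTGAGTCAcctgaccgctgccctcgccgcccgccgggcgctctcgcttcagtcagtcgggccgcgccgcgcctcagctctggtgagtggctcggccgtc
The BLVRB window held GCGTG at 3 places, 219 and 72 bases before the start and 13 bases after it, and none of the other motifs. The BACH1 window held GCGTG once, 246 bases before its start, and TGANTCA once, as TGAGTCA, 48 bases before it; the second window held no match and the third TGANNNNGC once. The windows of the other members held 3 matches of ACGTG (HMOX2, first of 2 windows), 1 of GCGTG (BLVRA), 4 of GCGTG and 2 of TGANNNNGC (FECH), 2 of GCGTG (FLVCR1), or no match (ALAS1 and SLC48A1). Such matches describe the sequence and say nothing on whether a factor was bound.

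The 2 synthesis enzymes took separate courses. ALAS1, the rate-limiting enzyme of heme synthesis outside red cells, rose in HT-29 with both agents, from 32.7, 36.0 and 38.7 CPM in the controls to 61.1, 62.6 and 57.5 CPM with CoCl2 and 66.6, 63.2 and 64.8 CPM with OD. Both treated groups lay above the controls, 1.68-fold for CoCl2 (FDR 1.19e-11; 0.0807 and a log2 value of 0.11 with library size alone) and 1.80-fold for OD (FDR 1.04e-12). In Caco-2 it rose 1.18-fold with OD (FDR 0.0181; 0.0532 to 0.0813 without control replicate 1 or 3 or OD replicate 1, and 0.368 with library size alone) and did not pass the test with CoCl2, where the log2 interval ran from -0.10 to 0.24 (FDR 0.453; -0.25, FDR 0.00806, with library size alone). FECH, the last enzyme, went opposite ways with the agents. In HT-29 its libraries held 14.39, 14.22 and 14.34 CPM in the controls, 26.4, 25.4 and 25.2 CPM with CoCl2 and 11.2, 9.66 and 10.2 CPM with OD. These ranges lay apart, with a 1.79-fold rise for CoCl2 (FDR 1.57e-10) and a fall by 0.47 on the log2 scale for OD (FDR 2.83e-05). The CoCl2 rise was 0.84 on the log2 scale, and as low as 0.21 among the alternative ways of processing. In Caco-2, FECH fell by 0.55 with OD (FDR 0.0026), from 9.55, 9.93 and 11.4 CPM to 7.87, 7.09 and 6.07 CPM, and rose 1.25-fold with CoCl2 (FDR 0.0438), to 12.7, 12.1 and 13.5 CPM. That last FDR was close to the threshold, with a log2 value of 0.00 under library size alone (FDR 0.977) and an FDR between 0.0553 and 0.16 without control replicate 1 or 2 or CoCl2 replicate 1 or 3.

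In the main fit, with TMM, the transporters moved by at most 0.47 on the log2 scale with CoCl2. Among the alternative ways of processing, FLVCR1 with CoCl2 reached -0.57 in Caco-2 and -0.84 in HT-29. FLVCR1, a transporter known for heme export, rose with OD and fell with CoCl2 in both lines. In Caco-2, the controls held 97.4, 93.7 and 94.6 CPM, the OD libraries 150, 174 and 161 CPM, and the CoCl2 libraries 75.7, 86.4 and 78.0 CPM. The 3 ranges lay apart, with a 1.70-fold rise for OD (FDR 1.57e-08) and a fall by 0.25 on the log2 scale for CoCl2 (FDR 0.00748). In HT-29, the controls held 25.3, 22.7 and 20.5 CPM, the OD libraries 30.2, 28.8 and 29.8 CPM, a 1.31-fold rise (FDR 4.39e-05), and the CoCl2 libraries 19.9, 20.7 and 18.2 CPM. The CoCl2 and control ranges overlapped there, and the fall by 0.20 (FDR 0.0259) went to an FDR of 0.141, 0.0537 or 0.138 without control replicate 1, CoCl2 replicate 1 or CoCl2 replicate 3. SLC48A1, which carries heme out of endosomes and lysosomes, rose in Caco-2 with CoCl2, from 19.5, 18.3 and 16.8 CPM to 26.997, 22.31 and 26.5 CPM (1.39-fold, FDR 0.000562; 0.15 on the log2 scale and FDR 0.224 with library size alone). With OD it reached 23.3, 22.0 and 21.4 CPM there, 1.22-fold above control (FDR 0.0331; between 0.0618 and 0.137 without control replicate 2 or 3 or OD replicate 1 or 2, and 0.325 with library size alone). In HT-29 it stood between 24.3 and 34.4 CPM in all 9 libraries, with a 1.15-fold rise for CoCl2 that turned into a log2 value of -0.43 with library size alone, and a fall by 0.19 for OD (FDR 0.0086). SLC48A1 lies on chromosome 12 (47753916 to 47782751, plus strand), where 3 other annotated genes overlap it. RAPGEF3 and HDAC7 are on the opposite strand and a long noncoding RNA gene is on the same strand, which makes its small changes uncertain.

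**Figure D3:**
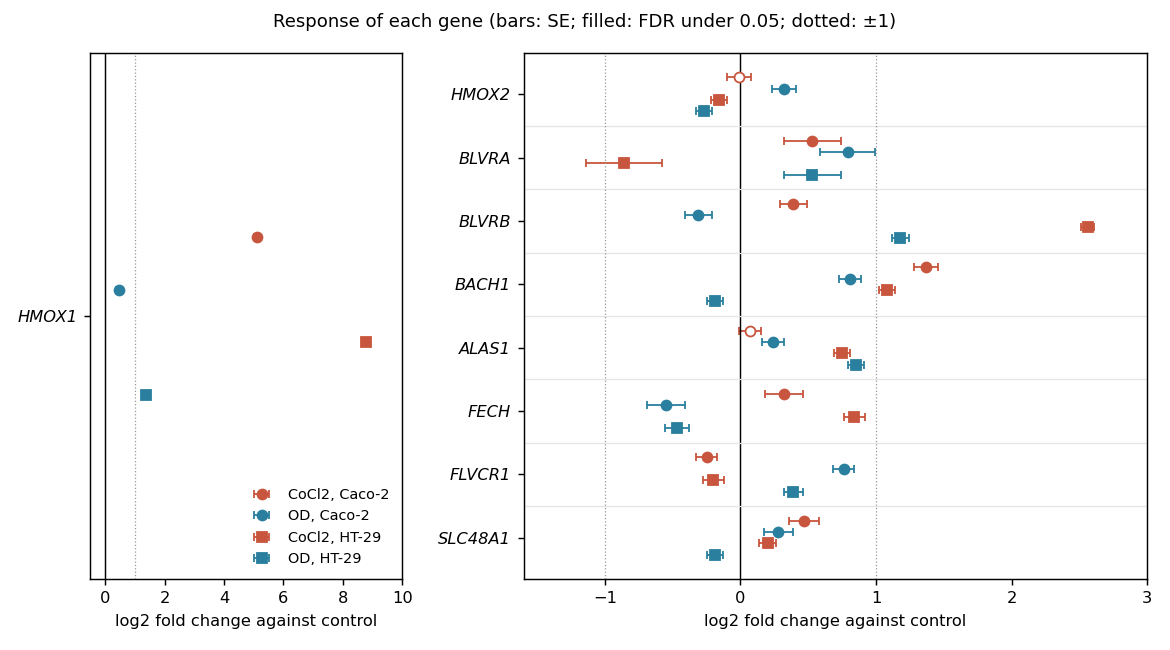
Log2 fold change against control (points) with its SE (bars) for the 9 genes, HMOX1 on an axis of its own; circles are Caco-2, squares HT-29, red CoCl2 and blue OD, filled points have an FDR under 0.05 and dotted lines mark 1 and -1. Beside HMOX1, the points beyond 1 are BLVRB with both agents in HT-29 and BACH1 with CoCl2 in both lines.

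With CoCl2 in Caco-2, 2 of the 9 members were called, HMOX1 and BACH1, both higher, where 23.4% of all genes tested were called (9.13% higher and 14.2% lower). For OD in that line the number of members called was 0 by edgeR's quasi-likelihood test (11.7% of all genes, 4.43% higher and 7.27% lower). With CoCl2 in HT-29, HMOX1, BLVRB and BACH1 were called higher (41.3% of all genes, 17.4% higher and 23.9% lower). With OD in HT-29, HMOX1 and BLVRB were called higher (17.1% of all genes, 9.5% higher and 7.57% lower).

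At an FDR under 0.05 and with any size of change, 6 members rose and 1 fell with CoCl2 in Caco-2, where 64.7% of all genes passed (31.6% higher, 33.1% lower), but 2 were higher and 3 lower with library size alone. With OD there, 7 rose and 2 fell (50.4%, of which 25.7% higher and 24.7% lower), and with library size alone 4 were higher and 2 lower. In HT-29, 6 rose and 3 fell with CoCl2 (82.8%, with 40.7% higher and 42.2% lower), and with library size alone the counts were 4 and 4. The OD libraries of HT-29 held more of 5 and less of 4 (68.8%, with 34.7% higher and 34% lower). The members' median log2 fold change in Caco-2 was 0.39 for CoCl2 and 0.32 for OD, beside -0.03 and -0.02 over all genes tested. Their median in HT-29 was 0.75 for CoCl2 and 0.39 for OD, beside -0.03 and 0.01. Treated and control libraries of Caco-2 lay apart for 6 members with CoCl2 (69% of all genes) and 9 with OD (59.4%), and those of HT-29 for 8 with CoCl2 (83.2%) and 8 with OD (71.1%). The comparisons of a line share its control libraries.

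The agents were next set against each other, at the doses used. HMOX1 was 25.3-fold higher with CoCl2 than with OD in Caco-2 (log2 4.66, SE 0.10, FDR 5.74e-21) and 170-fold higher in HT-29 (7.41, SE 0.06, FDR 2.21e-32). In Caco-2, 2 of the 9 members were called (11.7% of all genes, 5.21% higher and 6.44% lower), HMOX1 and FLVCR1, which was lower with CoCl2 (log2 -1.02, SE 0.08, FDR 1.71e-10; no longer called without CoCl2 replicate 1 or 3 or OD replicate 2, and at -0.96 without the last). In HT-29, 5 were called (29.9%, with 10.8% higher and 19.2% lower): HMOX1, BLVRB (1.37, FDR 5.74e-19), BACH1 (1.27, FDR 1.7e-16) and FECH (1.31, FDR 8.45e-14) were higher with CoCl2 and BLVRA lower (-1.40, FDR 3.94e-05). With library size alone, BLVRB, BACH1 and FECH were at 0.87, 0.77 and 0.81 and not called, while FLVCR1 was called at -1.09 (-0.59 with TMM). ALAS1 did not pass the test in either line, with log2 intervals from -0.34 to 0.00 in Caco-2 and from -0.22 to 0.02 in HT-29, but it was lower with CoCl2 under library size alone (-0.33 and -0.60, FDR 0.00122 and 2.62e-10). In HT-29 it also passed without a filter on low counts (-0.16, FDR 0.049), with limma-trend at either pseudocount (-0.17, FDR 0.0164 and 0.0176) and with all 18 libraries in 1 fit (-0.20, FDR 0.0226).

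Whether the lines differed in their response was tested as an interaction over the 18 libraries, taken as the response of HT-29 minus that of Caco-2 on the log2 scale. The CoCl2 response was larger in HT-29 for HMOX1 by 3.54 (95% interval 3.27 to 3.81, FDR 2.96e-21) and for BLVRB by 2.06 (1.82 to 2.30, FDR 4.64e-16). For BLVRA it was lower by -1.50 (-2.28 to -0.72, FDR 0.00132). These 3 members were called, as were 21.6% of all genes (7.79% higher and 13.8% lower). For OD, 2 members were called (15.2% of all genes, 8.96% higher and 6.24% lower), BLVRB at 1.48 (1.23 to 1.72, FDR 5.2e-12) and BACH1 at -1.02 (-1.25 to -0.79, FDR 3.52e-09), the latter under 1 in size in 5 of the 12 fits that left out 1 library. HMOX1 differed by 0.89 for OD (0.58 to 1.19, FDR 9.04e-06). FLVCR1 for CoCl2 and BLVRA and FECH for OD did not pass the test, with intervals from -0.29 to 0.17, from -0.92 to 0.37 and from -0.26 to 0.39.

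**Figure D4:**
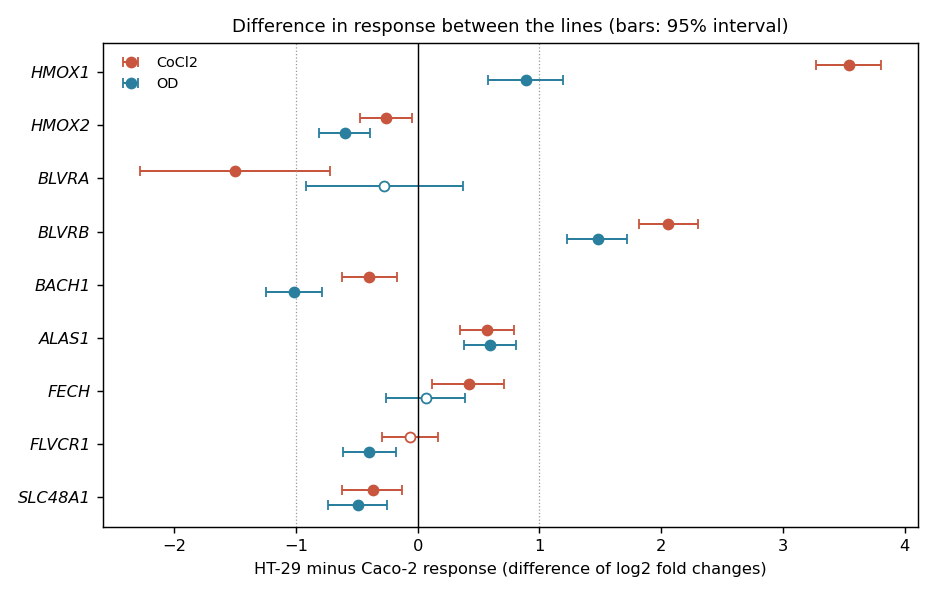
Difference in log2 response between the lines (HT-29 minus Caco-2; points) with its 95% interval (bars) for each gene, red for CoCl2 and blue for OD; filled points have an FDR under 0.05 and dotted lines mark 1 and -1. HMOX1 and BLVRB lie to the right for both agents, BLVRA to the left for CoCl2, and BACH1 to the left for both.

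Without treatment, HT-29 held less of 5 of the 9 members than Caco-2 (FDR under 0.05 and over 2-fold; 45.8% of all genes were called, 21.6% higher and 24.2% lower), and no member was called higher. On a scale common to all 18 libraries, HMOX1 stood at 5.14 CPM (SD 0.590, n = 3) in HT-29 and at 17.4 CPM (SD 1.88, n = 3) in Caco-2 (log2 -1.77, SE 0.11, FDR 4.42e-16). FLVCR1 was lower by -1.98, BLVRB by -1.36, BLVRA by -1.25 and ALAS1 by -1.03 (-0.96 without replicate 1 of HT-29), all with an FDR of 1.13e-05 or less. SLC48A1 (0.75), FECH (0.57) and BACH1 (0.36) were higher in HT-29 at an FDR under 0.05, and HMOX2 did not pass the test (0.10, interval -0.04 to 0.25, FDR 0.191).

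The order of the members by level was read per length, from group means of RPKM. In the Caco-2 controls, BLVRB was first at 45.1 (SD 1.78, n = 3), ALAS1 second at 31.6 (SD 1.18) followed by FLVCR1 at 15.1 (SD 0.317). HMOX2 (11.6) and BACH1 (11.2) followed with overlapping ranges, and then HMOX1 at 7.88, SLC48A1 at 3.78, BLVRA at 2.42 and FECH at 1.20, each with a range apart from its neighbour. With CoCl2, HMOX1 came first at 265 RPKM (SD 17.4), ahead of BLVRB at 57.8 (SD 8.35). In the HT-29 controls, BLVRB was first at 16.6 (SD 0.726), ALAS1 (14.5), BACH1 (13.6) and HMOX2 (11.8) followed with overlap between ALAS1 and BACH1 and between BACH1 and HMOX2, and HMOX1 was seventh of the 8 members with a value, at 2.20 (SD 0.271). With CoCl2 it was first at 889 (SD 31.8), ahead of BLVRB at 91.8 (SD 3.58). Among all genes above 0 in the table, HMOX1 went from rank 4920 of 13153 in the Caco-2 controls to 133 with CoCl2 and 4033 with OD, and from 9363 of 12431 to 38 and 6367 in HT-29.

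Of 7 other enzymes of heme synthesis, ALAS2, the red cell form, had too few counts to be tested (0 to 5 per library). With CoCl2 in Caco-2, 5 of the other 6 fell and 1 rose, where 33.1% of all genes fell and 31.6% rose. Of these enzymes, 3 were called lower, and the median log2 fold change was -1.03 (-0.03 over all genes, of which 14.2% were called lower). In HT-29, 3 fell and 2 rose, where 42.2% of all genes fell and 40.7% rose. There 2 were called lower and 1 higher (23.9% and 17.4% of all genes), and the median was -0.27. PPOX, the enzyme before FECH, fell by 1.73 in Caco-2 (SE 0.19, FDR 2.41e-08) and by 1.85 in HT-29 (SE 0.15, FDR 1.48e-11), from 13.2 to 4.07 CPM and from 9.44 to 2.61 CPM. UROS, which closes the porphyrin ring, fell by 1.28 and 1.16 with FDRs of 3.93e-11 and 1.26e-12. With OD, none of these enzymes was called in either line, although 5 fell and 1 rose in Caco-2, and 3 fell and 2 rose in HT-29, at an FDR under 0.05. Of all genes, 24.7% fell and 25.7% rose with OD in Caco-2, and 34% fell and 34.7% rose in HT-29.

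Among 12 genes of heme and porphyrin transport, CoCl2 gave 2 called higher and 1 lower in Caco-2 (23.4% of all genes were called), and 2 higher and 3 lower in HT-29 (41.3%). OD gave 1 called higher in each line (11.7% and 17.1%). With library size alone, the counts for CoCl2 were 0 higher and 1 lower (Caco-2) and 1 higher and 3 lower (HT-29), and OD gave 1 higher and 1 lower in HT-29. At that scale, of 16034 genes tested in Caco-2, 870 were called higher and 3546 lower with CoCl2. Of 15812 in HT-29, 1295 were called higher and 6250 lower with CoCl2, and 1225 and 1596 with OD. The median of the list in Caco-2 was 0.09 (CoCl2) and 0.31 (OD), in HT-29 it was 0.35 and 0.08, and with library size alone it turned to -0.24 for CoCl2 in Caco-2 and to -0.28 and -0.06 for CoCl2 and OD in HT-29. ABCB6, a porphyrin transporter, rose from 1.59 CPM (SD 0.44, n = 3) in the HT-29 controls to 30.8 CPM (SD 1.8) with CoCl2 (log2 4.27, SE 0.13, FDR 4.44e-21) and 7.19 CPM (SD 0.59) with OD (2.17, FDR 2.8e-12). In Caco-2 it rose by 1.20 with CoCl2 (FDR 1.04e-08) and 0.35 with OD (FDR 0.0302), but with library size alone it was not called for CoCl2 (0.88) and did not pass for OD (FDR 0.239). SLC25A38, a mitochondrial glycine carrier that feeds heme synthesis, rose by 1.05 and 1.06 with CoCl2 in Caco-2 and HT-29 (FDR 2.68e-11 and 2.34e-15), but by 0.73 and 0.43, and not called, with library size alone. SLC46A1, a folate transporter that also carries heme in the gut, fell with CoCl2 by 1.01 in Caco-2 (FDR 1.74e-10, no longer called with DESeq2's size factors) and by 2.68 in HT-29 (FDR 3.37e-09), where its controls held 2.99 CPM.

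Of 6 partners of BACH1 and NRF2, CoCl2 gave 3 called higher in Caco-2 (9.13% of all genes) and OD gave 2 (4.43%), and in HT-29 the numbers were 4 (17.4%) and 1 (9.5%). With library size alone they were 2, 1, 3 and 1, and FBXO22, a ubiquitin ligase subunit that targets BACH1, was called lower with CoCl2 in both lines (-1.11 and -1.44). With TMM no partner was called lower, and with DESeq2's size factors FBXO22 stood at -0.77 and -0.81 and was not called. Small MAF genes that pair with BACH1 were among the partners called higher, with log2 fold changes of MAFG in Caco-2 of 2.04 (CoCl2) and 1.11 (OD, 0.96 with library size alone) and in HT-29 of 2.98 and 1.30. Those of MAFF were 3.97 and 2.48 in Caco-2, and they came to 2.24 and 0.79 for HT-29, and each of these 8 had an FDR of 6.47e-10 or less. KEAP1, the inhibitor of NRF2, rose with CoCl2 by 1.01 in Caco-2 (0.69, and no longer called, with library size alone) and by 1.80 in HT-29. Of 9 other genes known as targets of BACH1, CoCl2 gave 8 called higher in Caco-2 (9.13% of all genes) and 7 in HT-29 (17.4%). The medians of this list were 1.89 and 3.47, beside an all-gene median of -0.03 in either line. OD gave 0 called higher in Caco-2 (4.43% of all genes) and 6 in HT-29 (9.5%). Its medians were 0.59 and 1.41, beside all-gene medians of -0.02 and 0.01. With library size alone, the counts were 7 and 6 for CoCl2 and 0 and 6 for OD. In HT-29 with CoCl2, GCLM rose by 4.07, FTL by 3.81, TXNRD1 by 3.67, ME1 by 3.56, and GCLC and FTH1 by 3.47 each, and in Caco-2 these 6 rose by 1.67 to 2.60. With OD in Caco-2, the same 6 stood between 0.05 (FTL, FDR 0.585; -0.10 with library size alone) and 0.99 (ME1, FDR 4.55e-10). FTL and FTH1 have processed pseudogenes that can share their reads, which makes their values uncertain.

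**Figure D5:**
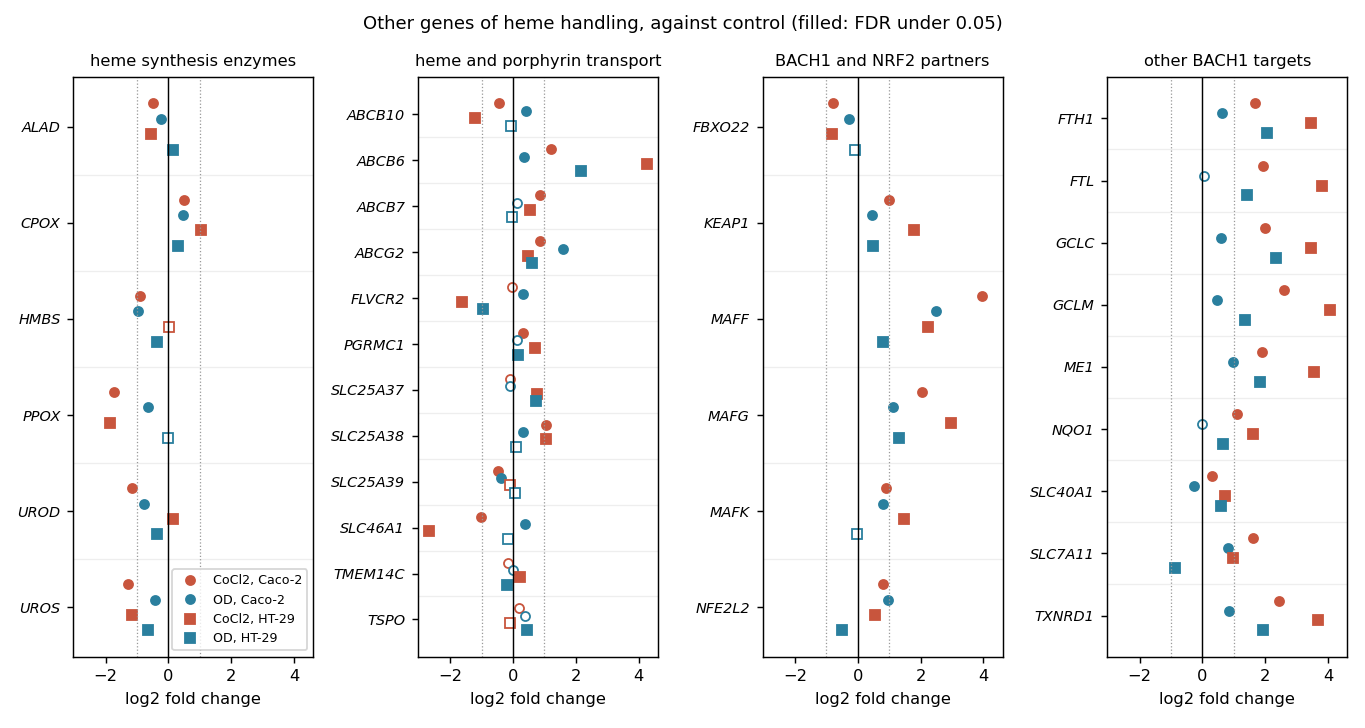
Log2 fold change against control for the other genes of heme handling in 4 lists; circles are Caco-2, squares HT-29, red CoCl2 and blue OD, filled points have an FDR under 0.05 and dotted lines mark 1 and -1. With CoCl2 in HT-29, 7 of the 9 other BACH1 targets and ABCB6 are among the points beyond 1. With CoCl2 in both lines, PPOX and UROS are among those beyond -1. For CoCl2 in HT-29, 4 partners, 2 transport genes (with ABCB6) and 1 synthesis enzyme were called higher. There 3 transport genes and 2 synthesis enzymes were called lower.

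The genes whose log2 CPM followed HMOX1 most closely over the 18 libraries, among 10810 genes with a mean of at least 100 counts, were ADM, UBFD1 and SPATS2 (Pearson's r 0.993 each), DYNC1H1 (0.989) and NSFL1C (0.988). ADM, which encodes the peptide adrenomedullin, went from a mean log2 CPM of 3.16 to 6.62 with CoCl2 in Caco-2 and from 2.15 to 7.40 in HT-29. Among the members, r was highest for BLVRB (0.883) and BACH1 (0.862) and lowest for HMOX2 (-0.379). These values describe 6 groups of 3 libraries in which the 6 CoCl2 libraries set most of the spread.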

How the data were processed

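Analysis started from raw read counts per gene in 18 mRNA libraries, deposited by the authors, and from their second table, a log2 table of RPKM plus 1. Set against the counts with TMM-scaled library sizes, each gene above 0 in that table gave 1 constant length over the libraries of a line (tolerance 1e-06), and its values taken back to RPKM gave levels per length. Per the labels and methods, stranded single-end 75-base reads were trimmed with cutadapt 2.10 and aligned with STAR 2.7.5b to GRCh38.p13; the counting tool and its use of strand are not given in the sources used here. The miRNA libraries were not used.

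Each line was fitted alone over its 9 libraries in edgeR 4.0.16 (R 4.3.3) with filterByExpr, TMM and a coefficient for each group, and the line differences over all 18 libraries. Two-sided quasi-likelihood F tests were adjusted by Benjamini-Hochberg (FDR) over all genes tested (16034 in Caco-2, 15812 in HT-29, 17921 over both lines). A gene was called at an FDR under 0.05 and an absolute log2 fold change over 1, the study's thresholds; "rose" and "fell" mean an FDR under 0.05. The study's DESeq2 (1.42.0 here) and limma 3.58.1 on the deposited log2 values were alternatives. Scripts were tested on simulated counts. Intervals cover 95%. The labels call the replicates biological and give no further detail. All 9 members were named. Other pathway genes were named if called in at least 2 of the 4 comparisons with control, with a mean of at least 50 counts, at most 6 a list, largest change first. ALAS2, too scarce to be tested, and FBXO22, called with library size alone, were named outside this rule. Alternatives were other scalings, filters, models and pseudocounts, a replicate block and leaving out each library. Members and lists were chosen with earlier results of these data known. Coordinates are of GENCODE v44.

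Same-numbered libraries did not deviate together: the correlation of their deviations from the group means ran from -0.055 to 0.068 in Caco-2 and from -0.037 to 0.025 in HT-29, with 0 of 9 pairs over 0.1 in each, so replicate numbers were not used as pairs.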

Additional observations from a re-analysis of the deposited data

Results flagged for a closer look

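Responses that differed between the lines by the interaction test, with an FDR under 0.05 and an absolute difference over 1 on the log2 scale (HT-29 minus Caco-2), were found for 4 members. For CoCl2 these were HMOX1 (3.54), BLVRB (2.06) and BLVRA (-1.5), and for OD BLVRB (1.48) and BACH1 (-1.02). BLVRB rose in HT-29 with OD and fell in Caco-2, and BACH1 rose in Caco-2 with OD and fell in HT-29. BLVRA rested on 6 to 17 counts in the CoCl2 libraries of HT-29. Differentiation of Caco-2 and the cell line cannot be told apart in these differences. Groups of 3 libraries are too small for the check on single outlying samples.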

How the results depend on the processing

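Of 81 comparisons of a member, 54 kept their direction and their side of the FDR threshold under all 13 to 21 alternatives. Over 1311 alternative values, 1219 did so, 69 lost the threshold, 8 gained it and 15 changed sign. HMOX1 was called in all alternatives for CoCl2 in both lines, with log2 values from 4.79 to 5.17 in Caco-2 and from 8.12 to 8.85 in HT-29, and for OD in HT-29 (1.02 to 1.44); BLVRB was called in all for both agents in HT-29 (1.92 to 2.60 and 1.05 to 1.22). BACH1 with CoCl2 in HT-29 stood at 0.45 with library size alone, 0.95 and 0.99 on the deposited log2 values with pseudocounts of 1 and 0.1, and 0.97 with all 18 libraries in 1 fit.

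Without a fold limit, the number of members called against control went from 2, 0, 3 and 2 to 7, 9, 9 and 9 (Caco-2 with CoCl2, with OD, then HT-29 alike). Of all genes, 64.7, 50.4, 82.8 and 68.8% passed in those comparisons. The number of members went from 2 to 6 for CoCl2 against OD in Caco-2 and from 5 to 8 between the controls. For the line differences in CoCl2 and OD response, it went from 3 to 8 and from 2 to 7. The share of all genes that passed without a fold limit is not given for these last comparisons, so their counts cannot be set against it. For CoCl2 against OD, the number of members called was 1 in Caco-2 with limma-trend at a pseudocount of 1, and 3 in HT-29 both there and with library size alone, where HMOX1, BLVRA and FLVCR1 were called, the last not with TMM. For the line difference in OD response, 1 was called with library size alone and with limma-trend at either pseudocount. Leaving out 1 library gave 1 to 2 called members for CoCl2 against OD in Caco-2 and for the line difference in OD response. By CPM in place of RPKM, the difference in HMOX1 share was 62.6 points (CoCl2, Caco-2), 87.1 (CoCl2, HT-29) and 16.6 (OD, HT-29).

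Signs changed with library size alone for CoCl2 against control in ALAS1 (-0.25) and FECH (0.00) in Caco-2 and SLC48A1 (-0.43) in HT-29, and for CoCl2 against OD in HT-29 in HMOX2 (-0.39) and SLC48A1 (-0.10). For HMOX2 with CoCl2 in Caco-2 they changed with DESeq2 and its size factors (0.01 each) and without CoCl2 replicate 3 (0.05; -0.05 to 0.05 over the 6 libraries left out). For the line difference in FLVCR1 with CoCl2 the values were 0.04 with DESeq2, its size factors and limma-trend, and 0.00 without control replicate 1 of HT-29 (-0.14 to 0.00 over the 12 left out), and in FECH with OD they were -0.02, -0.03 and 0.00 without Caco-2 control replicate 3, Caco-2 OD replicate 3 or HT-29 OD replicate 1 (-0.03 to 0.15). The causes were not tested.

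The replicate block left the number of called members at 2, 0, 3 and 2 against control, and ended 2 members' passing of the FDR threshold: FECH with CoCl2 in Caco-2 (FDR 0.0598) and HMOX2 in the line difference for CoCl2 (0.0527).

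Over all genes, the calls against control numbered 3747 (Caco-2, CoCl2), 1876 (Caco-2, OD), 6524 (HT-29, CoCl2) and 2699 (HT-29, OD), of which 39.1, 37.9, 42.1 and 55.7% were higher. By library size the higher share was 19.7, 23.3, 17.2 and 43.4%, and by limma-trend at a pseudocount of 1, with 1098, 381, 2520 and 744 calls, it was 53.2, 64.8, 53.5 and 69.2%. At a pseudocount of 0.1 there were 2116, 878, 3893 and 1295 calls.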

Other observations

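FLVCR1-DT, the transcript divergent from FLVCR1, fell with CoCl2 by 1.14 on the log2 scale in Caco-2 (FDR 3.87e-06) and by 1.07 in HT-29 (FDR 3.52e-05), and with OD by 0.54 in Caco-2 (FDR 0.00837), where FLVCR1 itself rose by 0.76. With OD in HT-29 its value was 0.22 (FDR 0.216). Its group means ran from 1.62 to 11.1 CPM.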
